A study of Mus musculus with 2 samples.

Results

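The cluster of miR-322, miR-503, miR-351, miR-542 and miR-450 is a run of microRNA (miRNA) hairpins on the mouse X chromosome. Its 9 probes were taken by miRBase mature-sequence accession from the 739 probes of the deposited table, and they cover both arms of miR-322, miR-542 and miR-450b and the 5p arm of miR-503, miR-351 and miR-450a. Levels were compared between Pam212, a Balb/c epidermal keratinocyte line that arose by spontaneous transformation and is not metastatic, and LY-1, a metastatic line derived from it. Both lines were untreated and were grown to confluence in serum-containing DMEM. RNA from 1 plate of each line was labelled with Hy5 and read on 1 array per line, so no value has a replicate, and no p-value or standard error can be given. These members were chosen with their values known, and the values below are therefore a description. The table names rows by accession alone, and the names of the 9 members were supplied with the accessions. No marker miRNA of keratinocytes or of another cell type could be looked up by name, so the labelled cell type was not checked here.

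A miRNA is cut from a hairpin precursor, whose 2 arms each give a mature strand (5p and 3p), and the strand kept in the Argonaute protein pairs with messenger RNAs mainly through its seed, bases 2 to 8. The pair of miR-322 and miR-503 (human has miR-424 in place of miR-322) belongs with the miR-15/16 group, which is known for restraining cell cycle genes such as cyclins D1 and E1, and the pair is known to accumulate when muscle cells leave the cycle and differentiate. Neighbouring hairpins in one cluster are often processed from a shared transcript, but their mature strands can reach different levels.

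The mature sequences, from RefSeq on GRCm38.p6, are given 5′ to 3′ in the order of the hairpins from miR-322, because the pair that read highest in LY-1 shares most of its seed. All 9 names matched an entry. Capitals mark the seed.
miR-322-5p: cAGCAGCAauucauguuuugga
miR-322-3p: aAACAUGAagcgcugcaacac
miR-503-5p: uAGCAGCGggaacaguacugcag
miR-351-5p: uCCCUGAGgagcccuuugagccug
miR-542-3p: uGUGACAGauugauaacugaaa
miR-542-5p: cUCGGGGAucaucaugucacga
miR-450a-5p: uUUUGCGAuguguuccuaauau
miR-450b-5p: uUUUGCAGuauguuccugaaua
miR-450b-3p: aUUGGGAAcauuuugcaugcau

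The seeds fall into separate classes along the cluster. miR-322-5p and miR-503-5p share bases 2 to 7 and differ at the last seed base by A8G, with positions counted from 1 at the 5′ end, miR-322-5p first. Compared without gaps over 22 bases, they differ at 11 positions, so outside the seed they are distinct RNAs. Their seed-matched target sites are UGCUGCU for miR-322-5p and CGCUGCU for miR-503-5p. Among the 1679 mouse mature names of the RefSeq table, 10 others share bases 2 to 7 with miR-322-5p, among them miR-503-5p, miR-15a-5p, miR-15b-5p, miR-16-5p, miR-195a-5p and miR-497a-5p. miR-351-5p shares these bases with 4 other names, miR-125a-5p and miR-125b-5p among them. miR-542-3p, miR-450a-5p and miR-450b-5p share them with no other name in that table. miR-450a-5p and miR-450b-5p have the same bases 1 to 6 and differ within the seed by G7A and A8G, miR-450a-5p first. Because the rows carry no names, the array values of the miR-15/16 and miR-125 relatives were not analysed here, and whether the probes tell such relatives apart was not tested.

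The 7 hairpins lie within 6353 bases on the minus strand of chromosome X. The miR-322 hairpin is at chrX:53054255-53054349, the miR-503 hairpin 200 bases downstream at chrX:53053984-53054054, and the miR-351 hairpin 630 bases further at chrX:53053255-53053353. These 3 hairpins lie inside the annotated long non-coding RNA gene C430049B03Rik, at chrX:53053112-53057190. A gap of 3767 bases follows before the miR-542 hairpin at chrX:53049403-53049487. The 2 miR-450a hairpins and the miR-450b hairpin come last, and all 4 of these downstream hairpins lie outside the annotated bounds of C430049B03Rik. The single mature sequence of miR-450a-5p comes from both miR-450a hairpins, which 1 probe cannot tell apart. RefSeq lists 4 further mature strands of these hairpins, not analysed here. The hairpins of the pair that read higher in LY-1 are shown to place their arms, with mature strands in capitals; the 3p arm of miR-503 is not among the 9 probes.
miR-322 hairpin: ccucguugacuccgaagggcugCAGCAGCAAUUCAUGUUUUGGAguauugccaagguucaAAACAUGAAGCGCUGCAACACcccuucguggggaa
miR-503 hairpin: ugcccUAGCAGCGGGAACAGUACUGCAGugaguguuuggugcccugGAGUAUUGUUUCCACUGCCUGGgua

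**Figure D1:**
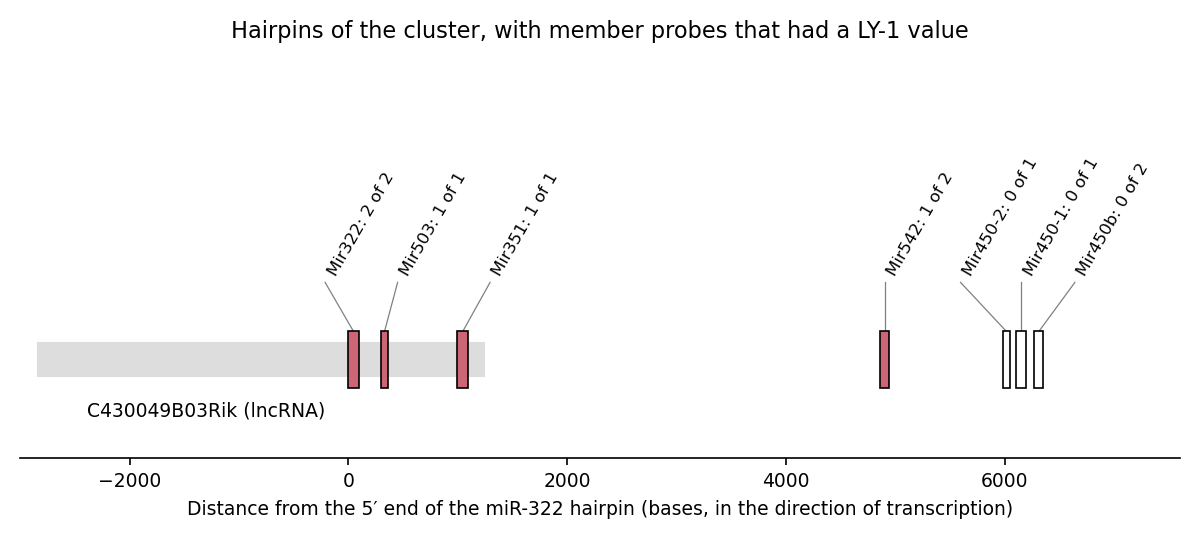
The horizontal axis gives the distance in bases from the 5′ end of the miR-322 hairpin, boxes are hairpins, the grey bar is C430049B03Rik, and each label gives how many of the hairpin's member probes had a LY-1 value (red boxes, at least 1; white boxes, 0; the miR-450a-5p probe is shown at both of its hairpins). All 4 probes of the upstream hairpins and 1 of the 5 probes of the downstream hairpins had a LY-1 value.

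Most of the cluster was dim or without a value. Of the 9 probes, 3 had a value on both arrays, 2 in LY-1 only, 1 in Pam212 only and 3 on neither array, where a null cell was kept as null. For all 739 probes these shares were 47.9% on both, 11.2% in LY-1 only, 14.3% in Pam212 only and 26.5% on neither. Intensities are deposited on a linear scale. The Pam212 array spanned 0.943 to 51459 with a median of 2.16, and the LY-1 array spanned 0.948 to 51140 with a median of 2.44, so every value of the cluster, at most 11.3, is small beside that range. Differences are given as log2 LY-1 minus log2 Pam212. A floor of 2.26, the pooled median of all values, had to be reached by the brighter value before a probe with values on both arrays was counted, and 2-fold was used as a size threshold, not a test.

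miR-322-5p (MIMAT0000548), the mouse counterpart of human miR-424-5p, had an intensity of 1.25 in Pam212 against 9.53 in LY-1. The LY-1 value was 7.62-fold the Pam212 value, which is 2.93 on the log2 scale. On its own array the Pam212 value stood above 18.3% of the values present and ranked 376 of 460, and the LY-1 value stood above 71.6% and ranked 124 of 437. The probe thus went from the dim end of one array to the upper part of the other, with the Pam212 value not far above the lowest of that array, 0.943. In RNA from a whole plate, more cells holding a miRNA and more of it per cell cannot be told apart.

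miR-503-5p (MIMAT0003188), which has nearly the same seed and is known to act on cell cycle genes with its neighbour, stood at 1.72 in Pam212 against 11.3 in LY-1. The ratio was 6.56-fold, or 2.71 on the log2 scale. Its rank was 279 of 460 in Pam212 and 116 of 437 in LY-1. The differences of the pair lay 0.22 apart on the log2 scale, and without replicates it cannot be said whether that gap exceeds measurement error.

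**Figure D2:**
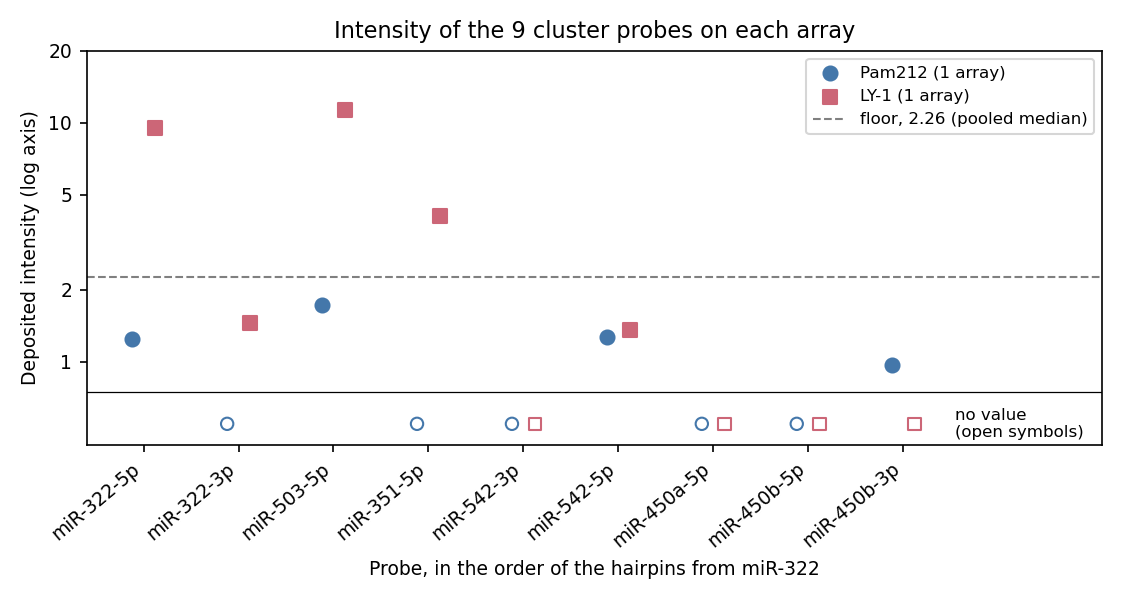
Deposited intensity (log axis) of the 9 probes in Pam212 (circles) and LY-1 (squares), 1 array each, with open symbols for null cells and a dashed line at the floor of 2.26. In LY-1, miR-322-5p, miR-503-5p and miR-351-5p stand above the floor at 9.53, 11.3 and 4.08, and no cluster probe reaches it in Pam212.

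Of the 354 probes with values on both arrays, 252 were past the floor, 2 of them in this cluster, and these 2 held ranks 1 and 2 of the 252 by log2 difference. Of those probes, 12.7% had a LY-1 value at least 2-fold above the Pam212 value, and 6.35% had one at least 2-fold below. Both cluster probes past the floor were on the higher side and 0 on the lower. Since the cluster was chosen for these values, neither its count nor its median is read against that background. The next probe in the ranking had a log2 difference of 2.50. Over the 354 probes with both values the median log2 difference was -0.003, and over the 3 cluster probes among them it was 2.71, the value of miR-503-5p. Past the floor the medians were 0.03 over the 252 probes and 2.82 over the 2 cluster probes. Both passed the floor only through the LY-1 value, and miR-542-5p was left out by it. The step from 2.71 to 2.82 is therefore made by the floor.

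**Figure D3:**
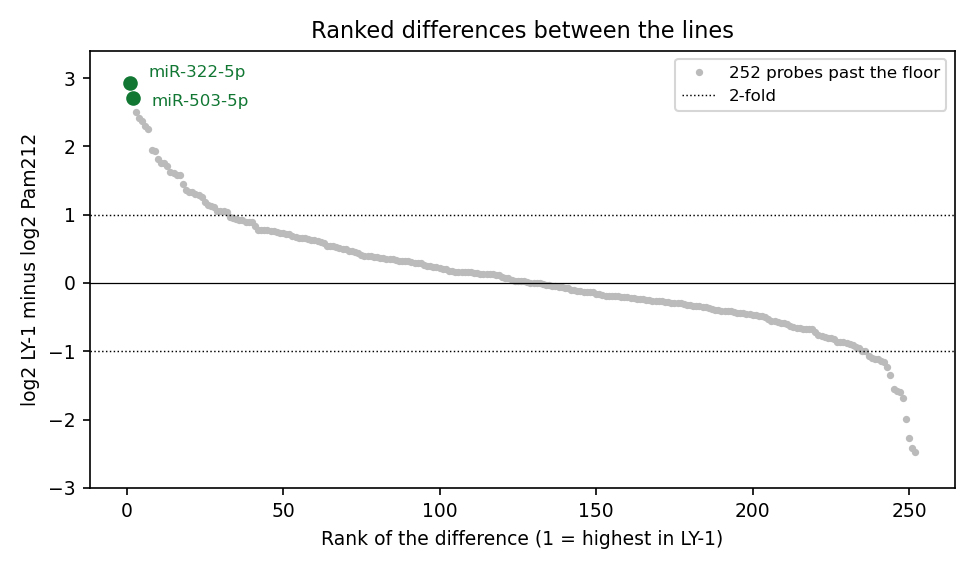
Log2 difference (LY-1 minus Pam212) of the 252 probes past the floor with values on both arrays, in order of rank, with cluster probes in green and dotted lines at 2-fold. miR-322-5p at 2.93 and miR-503-5p at 2.71 are ranked 1 and 2.

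The lead of the pair rests on low Pam212 values. Of the 137 probes with both values whose Pam212 intensity was under the floor, 35 reached the floor in LY-1, and for 14 of those the ratio was 2-fold or more. At or above 9.53 in LY-1 were 3 of the 137: miR-322-5p, miR-503-5p and a row that carries 4 accessions. With a pseudocount of 1.02 added to both values, the differences were 2.22 for miR-322-5p and 2.17 for miR-503-5p, and the ranks were 3 and 4. Neither probe was counted once the floor was required on both arrays.

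**Figure D4:**
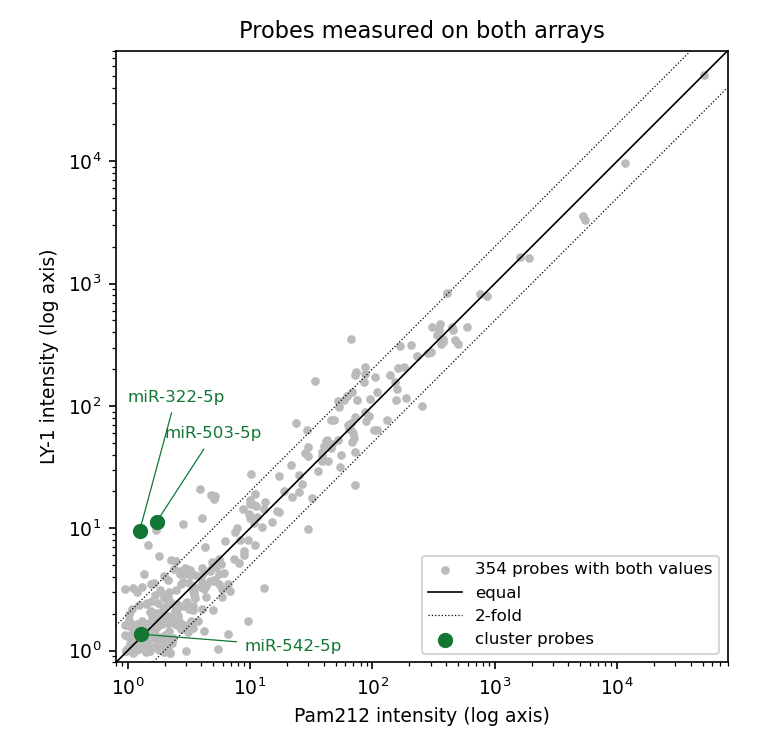
Intensity in LY-1 against Pam212 (both log axes) for the 354 probes with both values, with cluster probes in green, a solid line at equality and dotted lines at 2-fold. miR-322-5p (1.25 and 9.53) and miR-503-5p (1.72 and 11.3) lie at the upper left edge of the dim probes, and miR-542-5p (1.27 and 1.36) lies on the line of equality.

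miR-351-5p (MIMAT0000609), the third hairpin inside C430049B03Rik and a relative of miR-125 by its seed, had no value in Pam212 and read 4.08 in LY-1. Among the 83 probes with a value in LY-1 only, whose median was 1.22, it ranked 3, and 7 of the 83 were at or above the floor. No fold can be given against a null cell. In order from miR-322, the 5p strands of the upstream hairpins therefore read 9.53, 11.3 and 4.08 in LY-1, against 1.25, 1.72 and no value in Pam212.

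The opposite arm of miR-322 was dim. miR-322-3p (MIMAT0000549) had no value in Pam212 and read 1.45 in LY-1, rank 311 of 437 on that array and 26 of the 83 probes with a value in LY-1 only. Like miR-351-5p it had a value on the LY-1 array alone, but it lay under the floor. Levels of the 2 arms are not set against each other, because different probes need not give the same signal for the same amount of RNA.

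miR-542-5p (MIMAT0003171) was the one member with both values that differed by less than 2-fold. Its intensity was 1.27 in Pam212 against 1.36 in LY-1, 0.10 apart on the log2 scale, and both values were under the floor. A difference of that size or less was found in 45 of the 354 probes with both values. The Pam212 value ranked 370 of 460 and the LY-1 value 323 of 437, and whether a change would show at that level was not tested. The log2 difference of miR-542-5p was 2.83 below that of miR-322-5p and 2.62 below that of miR-503-5p. Without replicates this unequal change has no test. The other arm, miR-542-3p (MIMAT0003172), known in human cells for acting on the apoptosis inhibitor survivin, had no value on either array.

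The miR-450 probes at the downstream end gave 1 value between them. miR-450a-5p (MIMAT0001546) and miR-450b-5p (MIMAT0003511) had no value on either array. miR-450b-3p (MIMAT0003512) read 0.971 in Pam212, rank 454 of 460, and had no value in LY-1. In all, 3 probes of the Pam212 array had exactly 0.971, and the lowest value of that array was 0.943. It was the one member with a value in Pam212 alone.

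Position and annotation ran together along the cluster, but base composition followed them only in part. Downstream and outside C430049B03Rik, miR-542-5p had 54.5% G and C bases, above miR-322-5p at 40.9% and miR-322-3p at 47.6% inside it. The 4 probes of hairpins inside C430049B03Rik all had a LY-1 value, as did 1 of the 5 probes downstream; for all probes of the array that share was 59.1%. In Pam212 the counts were 2 of 4 and 2 of 5, against 62.2% of all probes. The 5 members with a LY-1 value had 40.9% to 62.5% G and C bases, and the 4 without had 31.8% to 36.4%. In Pam212 there was no such split: miR-351-5p at 62.5% and miR-322-3p at 47.6% had no value, and miR-450b-3p at 36.4% had one. All 3 members with no value on either array had 7 such bases of 22, or 31.8%, the lowest share in the cluster. The part of base composition in which probes gave a value was not tested. Among the members with both values, miR-542-5p had 54.5% and a log2 difference of 0.10, miR-503-5p had 56.5% and 2.71, and miR-322-5p had 40.9% and 2.93.

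**Figure D5:**
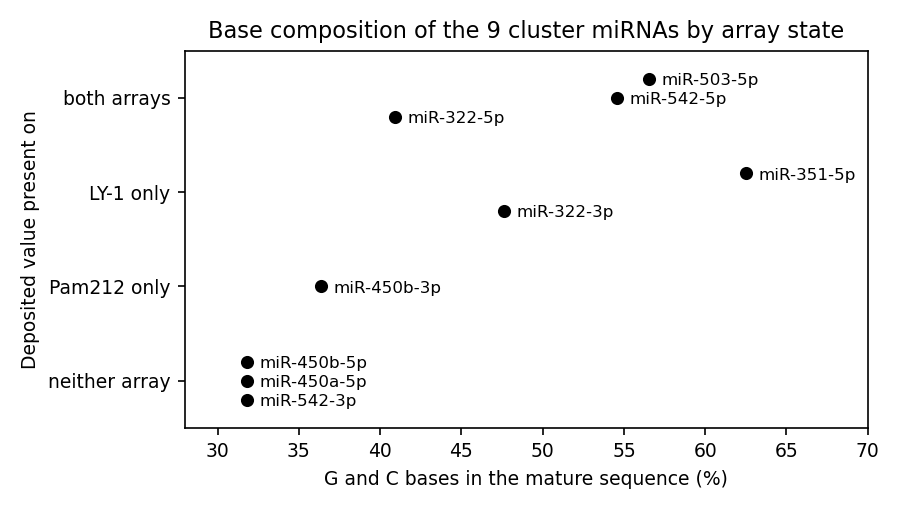
Share of G and C bases in the mature sequence (horizontal axis, %) of the 9 members, grouped by the arrays on which they had a value; the vertical offset within a group only separates the points. The 3 members with no value all lie at 31.8%, and the 5 with a LY-1 value lie between 40.9% and 62.5%.

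Likeness to miR-503-5p, the brightest member with both values, was measured as the Euclidean distance of log2 intensities over the 2 arrays. The nearest probe was the row with 4 accessions, MIMAT0002107 first among them, at 1.71 in Pam212 against 9.69 in LY-1 and a distance of 0.22. miR-322-5p came next at 0.52. MIMAT0003508, at 1.48 and 7.27, was the third at 0.67. Neither row has a miRNA name in the files, and a likeness over 2 arrays describes level and difference only.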

How the data were processed

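Total RNA from confluent Pam212 and LY-1 cells was labelled with Hy5 using a miRCURY LNA kit, per the labels' protocols. For each probe the authors deposited 1 linear intensity from each array. Scanning, background correction, combining of duplicate spots, scaling and the meaning of null cells are not stated in the labels or files. Array depth and error per probe are unknown, and having 1 array per line limits the precision. Deposited intensities were used as they are, and log2 differences were computed only where both arrays had a value, with no pseudocount. The members, lists and alternatives were chosen with earlier results of these data known. The rule for named probes took all 9 members and the 3 probes nearest to the brightest one. Relatives by seed, other X-linked miRNAs and cell type markers were also listed, but 0 of these could be looked up, since rows carry accessions without names. Sequences and positions came from RefSeq tables for GRCm38.p6, matched by miRNA name, and the labels name no build for the array design. Calculations used Python 3.11.15, numpy 2.4.6, pandas 2.3.3, statsmodels 0.14.6 and matplotlib 3.10.9. The scalings and fold counts were run on simulated data without noise, null cells or a floor. How those 3 features affect the results was not tested in that way.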

Additional observations from a re-analysis of the deposited data

How the results depend on the processing

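Over 4 scalings (median difference at 0, quantile normalization, division by the 75th percentile, removal of a lowess trend of span 0.5) and the pseudocount, the log2 difference ran from 2.22 to 3.01 for miR-322-5p, from 2.17 to 2.80 for miR-503-5p and from 0.05 to 0.20 for miR-542-5p. Ranks 1 and 2 of the pair held under the 4 scalings, with ranks 3 and 4 under the pseudocount. Setting the median difference to 0 and dividing by the 75th percentile shift every difference equally, so neither could change a rank. Of the scalings, only quantile normalization and the lowess trend could have moved the pair. The median over the cluster was 2.17 with the pseudocount and 2.82 over the 2 members past the floor with values on both arrays. Both members were counted as higher under the 4 scalings, the pseudocount, no floor and thresholds of 1.5-fold and 3-fold. Taking away the floor or lowering the threshold to 1.5-fold can only add probes, so neither setting could have dropped them. With the floor at the pooled 75th percentile, 11.0, miR-503-5p was the 1 counted, and with both values at the floor 0 were; 0 members were lower throughout. Over all probes, higher and lower counts were 63 and 43 at 1.5-fold, 15 and 7 at 3-fold, 18 and 6 with both values at the floor, 17 and 4 at the stricter floor, and 25 and 8 with the pseudocount, against 32 and 16. Stricter floors and thresholds lower counts by construction, and a changed floor also changes the number of probes counted over. Quantile normalization gave 27 and 22. Leaving out rows with several accessions, chosen after seeing the data, gave 31 and 16. No paired analysis was possible because each line has 1 array, which also leaves no replicate to leave out. No cluster value in Pam212 reached the floor, which limits every difference given. In LY-1, miR-322-3p and miR-542-5p also lay under it, and the highest cluster value, 11.3, was small beside the range of that array.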
